A study of Mus musculus with 4 samples.

Results

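Whole-genome bisulfite sequencing of the mouse somatosensory cortex was used to ask where DNA methylation differs when the histone methyltransferase NSD1 is removed from excitatory neurons, and the regions described here are those that lost the most heavily methylated CHH sequence. CHH stands for a cytosine followed by 2 bases other than G. The high-control CHH losses are the autosomal CHH regions of the authors' deposited table whose mean level was lower in the knockout and at least 10% in control. They number 1687 of the 44564 autosomal CHH regions lower in the knockout (3.79%), and of 101350 regions in all. The knockout group (cKO) has 2 libraries labelled Nsd1Nex-cKO, the control group has 2 libraries labelled Nsd1fl/+, and all come from mice aged 2.5 months. Nex (Neurod6) drives recombination in cortical excitatory neurons, so that interneurons, glia and vascular cells of the dissected tissue are not its target, and the control label shows 1 floxed and 1 unmodified allele of Nsd1. RNA was not measured in these libraries, so the labelled tissue could not be checked against marker genes.

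Bisulfite turns unmethylated cytosines into uracil, so that the share of cytosines still read as cytosine gives the methylation level. In most mammalian tissues methylation is nearly confined to CG, whereas neurons build up methylation outside CG after birth, when DNMT3A writes it. NSD1 dimethylates histone H3 at lysine 36, mostly between genes, and the PWWP domain of DNMT3A binds that mark. Each region of the table has 1 mean level for cKO and 1 for control, without values per library and without coverage. The depth and the spread between libraries are therefore unknown, and no test over mice was possible. The levels chose these regions and are given as a description. A level is an average over all cells of the tissue, so a lower level per cell and a smaller share of methylated cells cannot be told apart.

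The only listed promoter windows that the high-control CHH losses touched belong to 2 long noncoding RNAs, and these sequences are shown because they are the stretches of such regions that RefSeq promoter windows (GRCm38.p6, from 250 bases before to 50 after a start) contain. Capitals mark the bases inside the CHH region, and both windows read 5′ to 3′ on the strand of the gene.
Gm36749, chr2:173142555-173142854, plus strand: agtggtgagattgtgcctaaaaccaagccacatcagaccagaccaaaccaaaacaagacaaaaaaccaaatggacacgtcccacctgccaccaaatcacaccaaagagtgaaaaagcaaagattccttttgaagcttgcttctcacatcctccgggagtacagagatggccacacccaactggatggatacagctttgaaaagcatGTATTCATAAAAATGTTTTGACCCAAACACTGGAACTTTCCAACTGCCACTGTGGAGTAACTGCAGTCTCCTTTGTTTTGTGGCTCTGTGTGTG
Gm38808, chr6:50679433-50679732, minus strand: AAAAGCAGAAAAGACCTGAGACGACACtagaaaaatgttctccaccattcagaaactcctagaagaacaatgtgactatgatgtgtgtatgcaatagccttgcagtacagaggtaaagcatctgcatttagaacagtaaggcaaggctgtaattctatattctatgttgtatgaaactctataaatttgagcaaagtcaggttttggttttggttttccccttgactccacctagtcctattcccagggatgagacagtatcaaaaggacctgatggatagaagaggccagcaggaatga

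The region at Gm36749 (chromosome 2, 173142761 to 173142961, 69 CHH cytosines) had 13.0% methylation in control and 4.001% in cKO, and covers the start itself. Its 94 bases in the window hold 27 CHH cytosines on both strands together, 7 of them in CAC, and 0 CpGs. The region at Gm38808 (chromosome 6, 50679706 to 50679883, 58 cytosines) had 10.5% in control and 3.49% in cKO, and shares 27 bases with the upstream end of the window, without reaching the start. The whole windows contain 2 and 1 CpGs. The median was 7 in the 31396 autosomal windows listed, and 3 in the 149 windows that other CHH losses touched. Of the other CHH losses 136 of 42877 (0.317%) touched a listed window, against these 2 of 1687 (0.119%). Both totals include chromosome 18, whose starts were not used here. Without it they are 41292 and 1633.

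In the high-control CHH losses the median level was 11.1% in control (quartiles 10.4% and 12.2%, highest 21.1%) and 3.12% in cKO (quartiles 2.12% and 3.998%, from 0.159% to 8.79%). The median difference was -8.15 points. By the rule every one of them is lower in cKO, as were 84.1% of all autosomal CHH regions listed. In the 42877 CHH losses below 10% the medians were 5.45% in control and 0.991% in cKO. The regions just inside the limit had 10.0001% to 10.0009% in control, near Fam204a, near Cxcl12 and in Spon1, with 3.02%, 4.04% and 1.15% in cKO. Those just outside had 9.998% to 9.9996%. They lay 241 kb from Uaca, 116 kb from Irx5 and 26.8 kb from Casz1, with 1.37%, 3.28% and 2.31% in cKO.

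The mitochondrial DNA, which does not lie in chromatin with histones, also differed between the groups. Its 4 CHH regions in the table had 5.57%, 19.9%, 7.204% and 5.43% in control and 0.512%, 0.379%, 0.519% and 0.464% in cKO. Cytosines that bisulfite fails to convert are read as methylated, and the conversion of each library was not given in the sources used here. A difference in conversion between the groups would enter the control levels, the losses and the shares left given here, and its part in them was not tested. Of the high-control losses 1675 differed by more than the median mitochondrial difference, 5.87 points, and 1 by more than the largest, 19.6 points. Their control levels were above the highest mitochondrial one in 2. The smallest difference among the high-control losses was -5.39 points, and the median of the other CHH losses was -4.38 points. The limit on the control level selects for large differences, so these counts do not test the part of conversion.

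**Figure D1:**
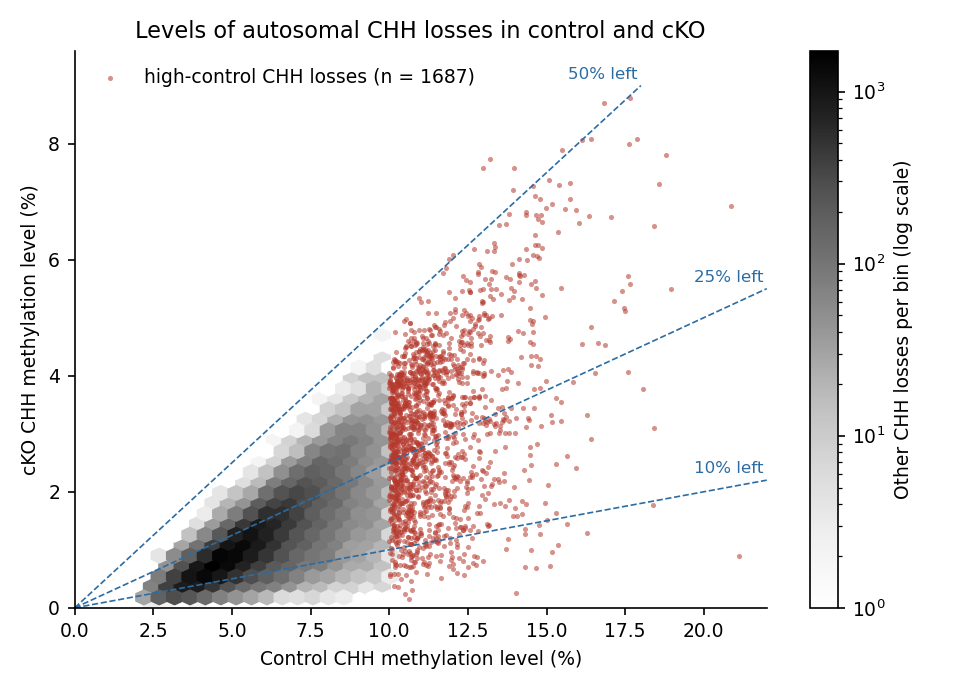
Control level (horizontal axis, %) and cKO level (vertical axis, %) of each autosomal CHH loss in the authors' deposited table, with the 1687 high-control losses as points, the others as shaded bins on a log colour scale, and dashed lines at 10%, 25% and 50% of the control level left in cKO. The points spread from near 0 to the 50% line, and 8 of them lie above it.

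The cKO kept a larger share of the control level in these regions than in the others. The median share of the control level left in cKO was 27.6% (95% interval of the median 26.6% to 28.3%, counting regions only), against 18.6% in the other CHH losses. This measure divides by the control level that the rule used, in regions listed because they differed. No fall among the other CHH losses was under 2.00 points, which limits the share left where control was low. How much of the contrast comes from this selection was not tested. The median share left went up along the control level, from 13.1% where control had 2% to 4% and 17.8% at 4% to 6% to 24.9% at 8% to 10%. It was 26.4%, 28.5%, 28.3% and 29.2% at 10% to 11%, 11% to 12%, 12% to 15% and above 15%. Among the high-control losses themselves the share left hardly followed the control level (Spearman correlation 0.07 across 1687 regions), while across all 44564 losses it was 0.46. These regions share the same libraries, so no p is given.

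**Figure D2:**
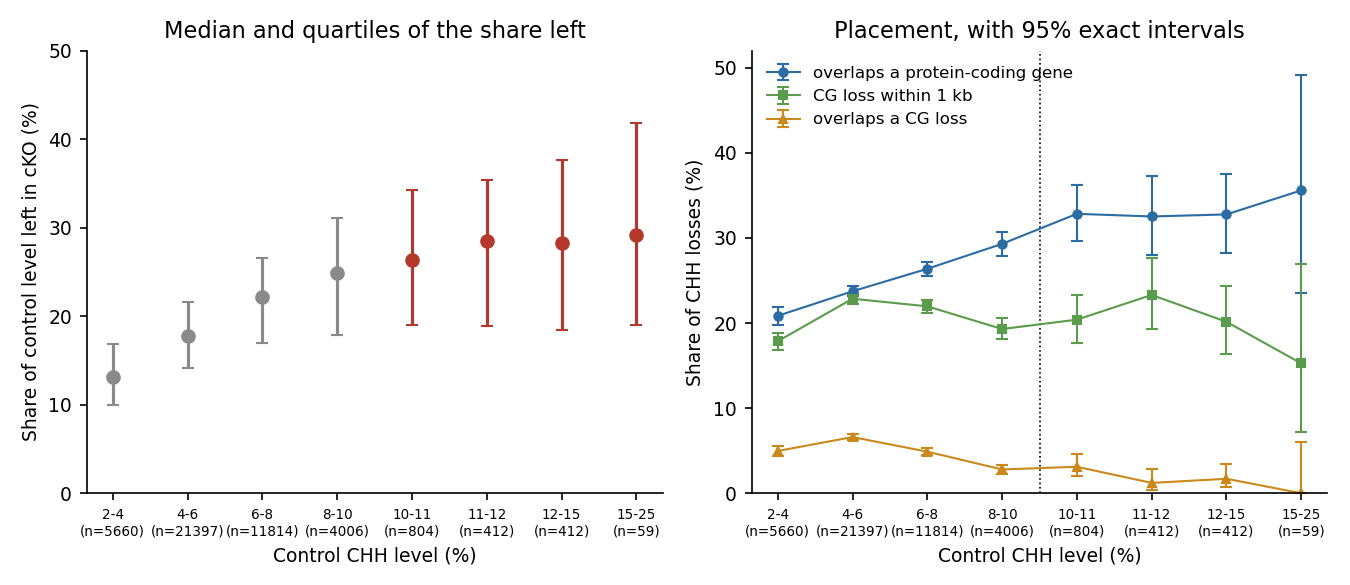
Autosomal CHH losses grouped by control CHH level (%, number of regions below each group). Left, the median and quartiles of the share of the control level left in cKO (%), which goes up to the group of 10% to 11% (red, high-control losses) and stays between 26.4% and 29.2% from there; right, the share of regions (%) that overlap a protein-coding gene, have a CG loss within 1 kb or overlap a CG loss, with 95% exact binomial intervals.

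Few of the high-control losses reached a low level in cKO. Less than 10% of the control level was left in 106 of 1687 (6.28%), against 9.48% of the other CHH losses. The cKO level itself was below 1% in 79 (4.68%) and below 5% in 1555 (92.2%); these shares depend on the limit set on the control level. The lowest level among regions with at least 20 cytosines lay 14.7 kb from Pgm5 (chromosome 19, 24876522 to 24876593, 20 cytosines), with 10.6% in control and 0.159% in cKO. A region 1484 kb from Mat2b, the nearest protein-coding gene, had 10.5% and 0.244% over 70 cytosines. Near Epas1, a transcription factor of the response to low oxygen, the levels were 10.7% and 0.306%, near Car10 10.3% and 0.352%, and near Elac2, a nuclease that trims transfer RNA, 10.2% and 0.377%. All 5 lay outside protein-coding genes.

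At the other end, 8 regions kept more than 50% of their control level. The 5 regions named next were ranked by cKO level instead, and of these only the one nearest to Irx5 kept more than 50% (51.8%). The highest cKO level with at least 20 cytosines, 8.79% against 17.6% in control, lay 149 kb from Msrb3, a methionine sulfoxide reductase (chromosome 10, 120631701 to 120631845, 58 cytosines). Irx5, an Iroquois transcription factor, was 233 kb from a region with 16.8% in control and 8.71% in cKO. A region 114 kb from Usp24, a deubiquitinase, had 16.4% in control and 8.08% in cKO. One 2.94 kb from Fgfr1, a receptor for fibroblast growth factors, had 17.9% and 8.07%. The fifth, 47.3 kb from 3110040M04Rik, had 16.1% and 8.06% over 22 cytosines. Shorter regions kept more. Split by the share left into 4 parts, the lowest part (1.49% to 18.9% left) had a median length of 207 bp with 71 cytosines, and in the highest part (35.5% to 58.5%) it was 118 bp with 43 cytosines, with medians of 11.2% and 11.3% in control and 1.52% and 4.46% in cKO. The rank correlation of the share left with length was -0.53 across the 1687 regions, and -0.15 across all CHH losses.

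The strongest high-control CHH loss, by the authors' area statistic summed over the cytosines of a region, lay 3.09 kb from Neurog2, a proneural transcription factor that directs progenitors to become excitatory neurons (chromosome 3, 127638729 to 127639448, 262 cytosines). It had 12.8% in control and 4.06% in cKO. The next lay in Myo1h, an unconventional myosin (chromosome 5, 114297725 to 114298436, 225 cytosines), with 10.6% and 1.56%. The third, 25.1 kb from Id4, which blocks the DNA binding of basic helix-loop-helix factors (chromosome 13, 48291094 to 48291655), had 13.9% and 1.58% over 194 cytosines. Inside genes there followed Wwox, an oxidoreductase gene at a fragile site (10.5% and 1.84%), Tcerg1l (14.2% and 1.62%) and Nav2, which acts in axon growth (11.1% and 0.756%). Outside genes there followed regions near Zbtb10 (15.7% and 2.62%) and Trabd2b, an inhibitor of Wnt ligands (11.2% and 1.84%). Others were nearest to the DNA repair gene Mgmt (11.3% and 1.45%, at 307 kb) and to Svil (14.3% and 2.38%). Another 2 lay 60.5 and 206 kb from Tle3, in the stretch described below. Of these 12 regions, 4 lay in protein-coding genes and 8 outside.

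The 8 highest control levels were reached in regions of 119 to 245 bp, around the median length of 182 bp. A region 18.5 kb from Hunk, a kinase (chromosome 16, 90366584 to 90366736, 52 cytosines), had 21.1% in control and 0.897% in cKO, the highest control level of all and one of the 79 cKO levels below 1%. In Tanc1, a scaffold of the postsynaptic density, 20.9% in control stood against 6.93% in cKO over 35 cytosines. Regions 162 kb from Atg4c and 35.5 kb from Tmem200c had 18.97% and 18.8% in control and 5.49% and 7.80% in cKO. In Rassf4 the levels were 18.6% and 7.31%, and 30.9 kb from Ccne1, which drives entry into S phase, 18.4% and 3.10%. At 1.95 kb from Timd4, a receptor for phosphatidylserine, they were 18.4% and 1.78%, and at 119 kb from Triqk 18.1% and 3.77%.

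Most high-control CHH losses lay outside protein-coding genes, but a larger share lay inside than among the other CHH losses. Of the 1687, 554 (32.8%, 95% exact binomial interval 30.6% to 35.1%) overlapped a protein-coding gene by at least 1 bp, against 10548 of 42877 (24.6%, 24.2% to 25.01%). The share was 20.8% where control had 2% to 4% and 29.3% at 8% to 10%, so it went up along the control level before the limit is reached. Outside genes, 38 lay within 2 kb of one, 667 (39.5%) between 2 and 100 kb, and 428 (25.4%) beyond 100 kb, against 3.06%, 44.7% and 27.6% of the other CHH losses. The median distance to a gene for those outside was 59.4 kb (56.6 kb in the others). Intervals cover the counting of regions, which share libraries and neighbours and are not replicates, so this difference has no test over mice.

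**Figure D3:**
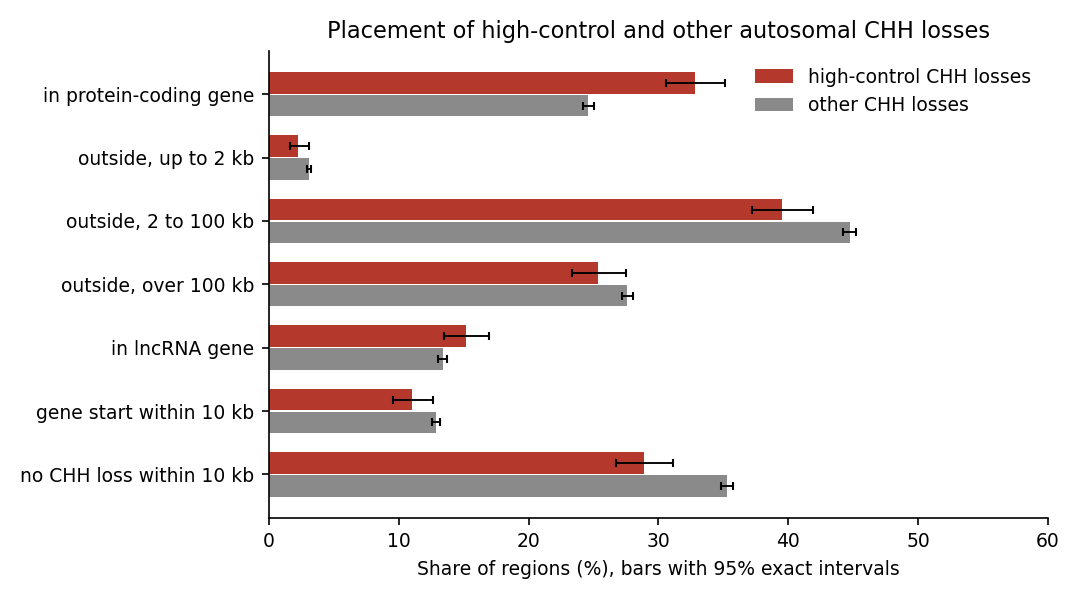
Share of high-control (n = 1687) and other (n = 42877) autosomal CHH losses, in %, in each class of position, with 95% exact binomial intervals; gene starts were measured for 1633 and 41292 of them. The high-control losses overlap a protein-coding gene in 32.8% against 24.6% and stand without another CHH loss within 10 kb in 28.9% against 35.3%.

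Gene starts were rarely close. Of the 1633 regions on chromosomes with listed starts, 1 lay within 0.5 kb of the start of a protein-coding gene and 42 (2.57%) within 2 kb, against 0.346% and 3.02% of the other CHH losses. Inside genes with a known strand the regions were spread over the length of the gene, with 31.1%, 26.6%, 23.0% and 19.2% in 4 equal parts from its start to its end, beside 33.0%, 25.4%, 22.2% and 19.4% of the other CHH losses. The share of the control level left had medians of 28.3% inside and 27.1% outside protein-coding genes, with intervals of the median from 26.8% to 29.5% and from 26.2% to 28.1%. Long noncoding RNA genes were overlapped by 256 (15.2%, against 13.4%).

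The 554 regions inside genes fell into 404 of 20560 autosomal protein-coding genes (1.96%), of which 321 held 1 and 52 held 2. These genes were long, with a median length of 138 kb against 17.6 kb for all protein-coding genes. Wwox and Rbms3, an RNA-binding protein, held 9 each, the most of all. In Wwox the 9 regions ranged from 10.1% to 13.6% in control and from 1.84% to 5.87% in cKO, and in Rbms3 from 10.04% to 14.5% and from 1.38% to 4.09%. They were 9 of 82 and 9 of 103 CHH losses in these genes, or 10.98% and 8.74%. Inside all protein-coding genes the count was 554 of 11102 CHH losses, and over all autosomal CHH losses the share was 3.79%. Both genes were named because they held the most, so shares above these are partly set by that choice. Prdm16, a zinc finger transcription factor, held 8 of 83, with 10.4% to 15.2% in control, and at 2.49 per 100 kb they were denser than in Wwox (0.986) or Rbms3 (0.851).

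Sox6, a transcription factor of interneurons and oligodendrocyte precursors, held 7 of its 60 CHH losses in this group. The highest were 14.98% in control and 3.92% in cKO (chromosome 7, 115622883 to 115623125) and 14.8% and 6.20% (116029614 to 116029835). Arhgap24, a GTPase-activating protein, held 7 of 68, Fhit, a fragile-site gene of nucleotide metabolism, 6 of 54, and the transcription factor Creb5 5 of 49. Sdk1, a synaptic adhesion molecule, held 5 of only 25 CHH losses (20%) and also 5 CHH regions higher in cKO. Tspan18, a tetraspanin, held 4 of 21 in 133 kb, the densest of these 10 genes at 3.01 per 100 kb, and Cgnl1, of tight and adherens junctions, 4 of 30. In all 7 genes held 4, and these are the 2 with the most per 100 kb. The others were Itpr2 with 4 of 34, Cdh4 with 4 of 23, Nfia with 4 of 11 (36.4%), Alk with 4 of 72 and Pard3b with 4 of 52. Of the 404 genes 87 (21.5%) also held a CHH region higher in cKO, against 14.8% of the 2823 genes with other CHH losses only, whose median length was 42.7 kb.

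**Figure D4:**
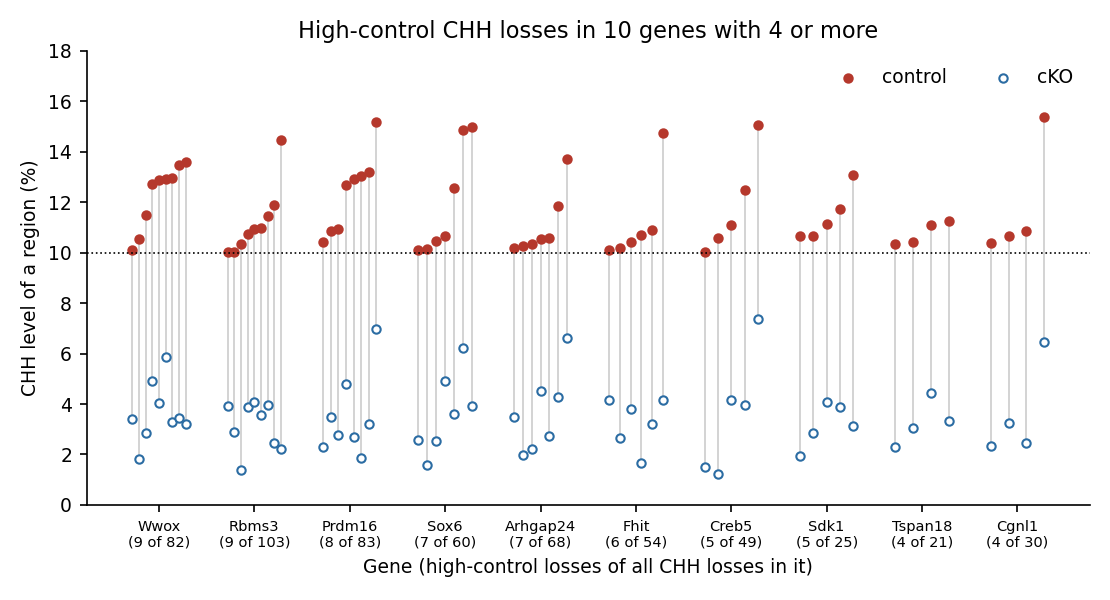
CHH level (%) in control (filled) and cKO (open) of each high-control CHH loss in 10 genes, the 8 that hold 5 or more and the densest 2 of the 7 that hold 4, joined by a line, with the number of such regions of all CHH losses in the gene. Every control level is above the dotted 10% line by the rule, and the cKO levels lie between 1.22% and 7.38%.

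Beside the 1.96% of all protein-coding genes, the listed genes of other lineages, interneurons, excitatory neurons and astrocytes were overlapped in larger shares. For the last 2 lists this was 1 gene each. The lists were set out with earlier results of these data known, and this is a description. Of 58 developmental transcription factors of other lineages 9 (15.5%) were overlapped by a high-control CHH loss, and of 27 interneuron genes 5 (18.5%). CHH losses of any control level overlapped 29 of the 58 and 12 of the 27, against 3227 of all 20560 genes. Both lists thus also exceeded all genes for CHH losses of any control level. Of the genes with any CHH loss, a high-control one overlapped 9 of 29 and 5 of 12, against 404 of 3227. The genes of these 2 lists had a median length of 13.1 kb and 14.8 kb, those overlapped by a high-control loss 88.7 kb and 566 kb. Among the first, Runx1, a factor of blood formation, had 13.7% in control and 3.29% in cKO, Pax8 of thyroid and kidney 13.1% and 3.47%, and Pax5 of B cells 11.3% and 1.34%. Lmx1a of the dorsal midline and midbrain had 2 regions, with 10.8% and 11.9% in control and 3.37% and 1.72% in cKO. Lmx1b (11.5% and 4.07%), the heart factors Tbx5 (10.3% and 2.13%) and Tbx20 (10.3% and 2.00%) and Gata6 (10.1% and 2.997%) had 1 each, and Prdm16 had the 8 described above.

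Among the interneuron genes, Adarb2 had 13.2% in control and 1.44% in cKO in one region and 10.7% and 4.56% in another. Reln, a secreted protein that guides neuronal layering, had 10.9% and 10.4% in control and 3.31% and 3.43% in cKO. Prox1 had 10.2% and 2.58% and Erbb4, the neuregulin receptor, 10.8% and 2.73%, while Sox6 held 7. Of 15 genes of excitatory neurons, 1 (6.67%) was overlapped, the deep layer factor Bcl11b (11.3% and 3.27%). Of 10 astrocyte genes it was 1 (10%), Aldh1l1 (10.1% and 1.39%). None of 11 oligodendrocyte lineage, 12 microglia and 11 endothelial and mural genes, or of 15 writers and readers of methylation, was overlapped on the autosomes.

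Of the 1133 high-control CHH losses outside protein-coding genes, 27 had a listed developmental transcription factor as the nearest one. These were 20 of the 58 such factors, and 820 of all 20560 protein-coding genes were nearest to at least 1 of the 1133. The same held for 5 of 27 interneuron, 3 of 15 excitatory neuron and 4 of 10 astrocyte genes. It also held for 3 of 12 microglia, 2 of 11 oligodendrocyte lineage and 2 of 11 endothelial and mural genes. A larger share than over all genes was thus not particular to the developmental factors. Tbx3 was nearest to 4, at 31.5 to 372 kb, with 10.4% to 13.7% in control and 1.01% to 3.01% in cKO. Runx1 had 3 in its surroundings besides the region inside it. At Pax7, a factor of muscle stem cells, the region lay at 20.3 kb (14.3% and 1.27%), and at Twist2 one of 2 regions had 12.04% and 0.673%. Around Sox9, used here as an astrocyte gene, 4 regions lay at 10.4 to 304 kb with 10.6% to 11.2% in control. Sall1, a microglia gene in this tissue, had 4 at 5.08 to 515 kb, with 10.8% to 11.5% in control and 2.14% to 4.36% in cKO. Most genes were nearest to 1 region only, 639 of 820.

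The high-control CHH losses were mostly single. Joined over gaps of up to 10 kb, 1507 stood alone, 84 pairs formed and 4 groups of 3, so that 180 (10.7%) were in a cluster. They were less often isolated from other CHH losses than the rest: 28.9% had none within 10 kb, against 35.3% of the others. The nearest other CHH loss lay at a median of 3.95 kb against 5.28 kb. That neighbour reached 10% itself for 5.51% of them, and for 3.79% of the others, with a median control level of 5.77%. Of the groups of 3, the one with the largest summed area statistic lay 135 kb from Uaca (chromosome 9, 61015052 to 61018094), with 11.4% to 14.1% in control and 4.17% to 5.71% in cKO. The others lay 27.5 kb from Cdca7 (10.7% to 12.5% in control, 2.36% to 4.54% in cKO), 63.4 kb from Bnc1 (10.4% to 12.3%, 1.12% to 3.35%) and 340 kb from Shh, the Hedgehog ligand (10.1% to 11.5%, 2.96% to 3.70%). The pair with the largest statistic lay 27.9 kb from Bcl11b (chromosome 12, 107880057 to 107882484), with 13.0% and 10.5% in control and 2.35% and 2.25% in cKO.

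On a larger scale 1 stretch stood out, on both sides of Tle3, a Groucho family corepressor that DNA-binding factors recruit. It was chosen after its values were seen. Among the 1197 windows of 2 Mb with a CHH loss, that from 60 to 62 Mb of chromosome 9 held 23 high-control losses of 183 CHH losses (12.6%), and the next held 13. The median window held 1, and 10 windows held at least 10. Within 838 kb, from 60926732 to 61765026, there were 22, of which 14 lay upstream of the start of Tle3 and 8 downstream. Their control levels ran from 10.01% to 14.8% with a median of 11.4%, and their cKO levels from 1.21% to 5.71% with a median of 3.46%. Tle3 was the nearest protein-coding gene for 12 of these 22, Uaca for 6 and Rplp1 for 4. The group of 3 near Uaca described above lies in this stretch. Tle3 itself (61372326 to 61418497) overlapped 0 of the 153 CHH losses within 500 kb of its start, and the nearest high-control loss lay 9.76 kb upstream. The other CHH losses of the stretch had medians of 6.23% in control and 1.41% in cKO. The same stretch held 95 CG regions lower in cKO, with medians of 79.4% and 43.4%, none of them in the gene. Regions higher in cKO numbered 2 in CG, both outside Tle3, and 1 in CHH, inside it (61416066 to 61416175, 44 cytosines), with 1.60% in control and 6.35% in cKO.

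**Figure D5:**
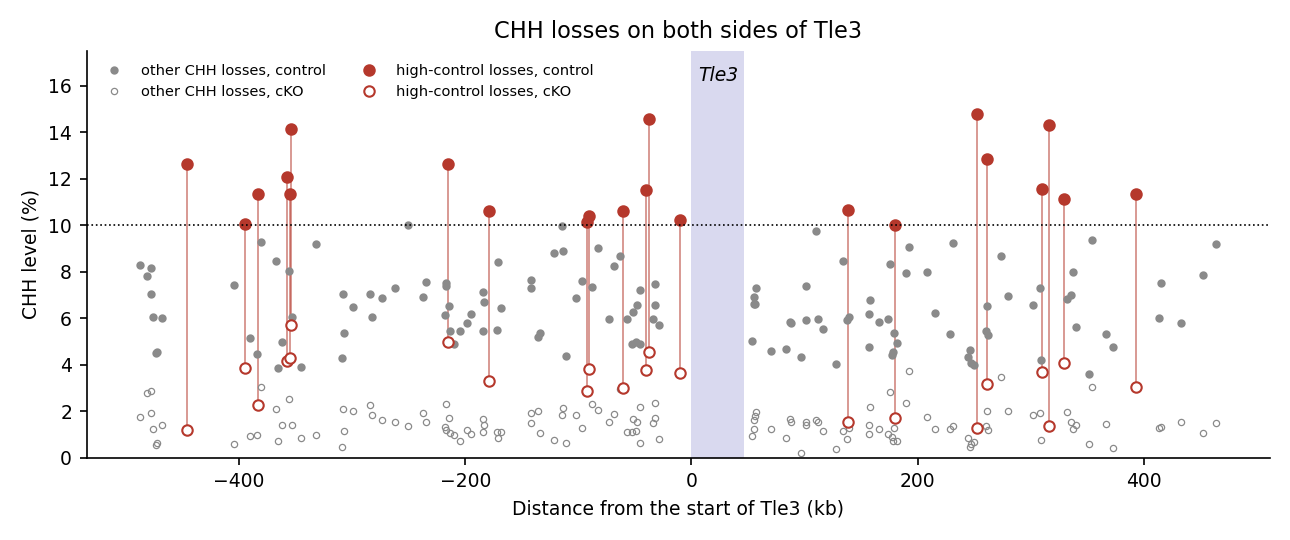
CHH level (%) against the distance from the start of Tle3 (kb), in control (filled) and cKO (open), for the 22 high-control losses (red, joined by a line) and the other CHH losses (grey) of the stretch; the shaded band is the gene body and the dotted line 10%. High-control losses lie on both sides and 0 CHH losses lie in the band.

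By chromosome the share of CHH losses that reached 10% in control ran from 2.77% on chromosome 3 to 5.44% on chromosome 9, and the median share left in cKO from 25.3% on chromosome 6 to 31.2% on chromosome 16. The X was outside the rule and held 5 such regions of 443 CHH losses (1.13%), with at most 13.8% in control.

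The high-control CHH losses seldom coincided with a CG region of the table, of which 94.5% on the autosomes were lower in cKO. A CG region lower in cKO overlapped 37 (2.19%, 95% exact binomial interval 1.55% to 3.01%), against 5.56% of the other CHH losses (5.34% to 5.78%). Within 1 kb the shares were close, 20.9% (18.9% to 22.9%) and 21.6% (21.2% to 22.01%). The overlap was largest at control levels of 4% to 6%, with 6.60%. It was already down to 2.80% at 8% to 10%, below the limit, and was 3.11% at 10% to 11%. Of the 59 regions above 15%, 0 had one. The 37 overlapping CG regions had medians of 80.3% in control and 40.9% in cKO, and the median over regions of the share left was 52.1% in CG, beside 24.4% for the CHH level in the same places. Examples are Sox6, with 75.3% and 45.4% in CG beside 10.5% and 2.53% in CHH, and Prdm16, with 75.6% and 37.4% over 58 CpGs beside 10.4% and 2.31%. A high-control loss with a CG loss within 1 kb kept a median of 26.7% of its control level, and one without kept 27.96%.

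CHG regions lower in cKO, 75.7% of the CHG regions listed on the autosomes, overlapped 4 of the high-control losses (0.237%). The share was close to the 0.205% of the other CHH losses, as it was within 1 kb (0.533% and 0.532%). In Fli1, a transcription factor of blood and endothelium, CHH levels of 12.1% and 2.85% stood beside CHG levels of 4.91% and 0.157%. The other overlaps lay 197 kb from Rasgrp1 (CHG 8.15% and 0.479%), 224 kb from Psmd7 (8.35% and 1.12%) and 231 kb from Rplp1, within the stretch around Tle3 (6.62% and 0.235%). No CHH region higher in cKO overlapped a high-control loss, and none overlapped any of the 42877 other CHH losses, so this 0 is not particular to them. Within 1 kb of a CHH region higher in cKO lay 2 high-control losses (0.119%), against 17 of the others (0.0396%). For CG regions higher in cKO the counts were 2 (0.119%) and 8 (0.0187%). In Wdr25 a loss from 13.2% to 7.73% stood 960 bp from a region that had 2.50% in control and 8.55% in cKO. In Arhgap28 a loss from 12.04% to 0.758% (22 cytosines) lay 167 bp from a region with 1.82% in control and 8.61% in cKO, over 23 cytosines.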

How the data were processed

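Per the labels' protocols, DNA was extracted from somatosensory cortex with CTAB, sheared, converted with bisulfite, given adaptors and amplified by PCR. CASAVA, Bowtie2 and mm10 appear in the submitters' processing notes, without roles or versions. The region caller, its thresholds, the coverage and the conversion of cytosines were not given in the sources used here. The authors deposited 1 table of called regions with the mean methylation level of each group as a fraction, which is given in percent above. The deposited difference and area statistic are scores with no unit fixed by the table: the first equals cKO minus control, and the second was used only for ranking.

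From the table the share left was computed as the cKO level divided by the control level of the same region. Gene models were those of RefSeq (GRCm38.p6, as mm10), without entries in the first 3 Mb of a chromosome. This left 20560 autosomal protein-coding genes, 16457 of them with a listed start, and starts on chromosome 18 were not used here. An overlap with a gene needed 1 bp. Clusters joined regions over gaps of up to 10 kb. Intervals are 95%, exact Clopper-Pearson for shares and from binomial order statistics for medians, and cover the counting of regions only. The overlap, distance and cluster steps were tested on simulated data. Python 3.11.15, pandas 2.3.3 and scipy 1.17.1 were used.

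The regions, gene lists and naming rule were chosen with earlier results of these data known. Named were the 12 regions with the largest area statistic, with at least 20 cytosines the 8 highest in control and the 5 highest and 5 lowest in cKO, 3 regions on each side of the limit, the 5 largest clusters, the 10 genes with the most regions (equal numbers ordered by regions per 100 kb) and listed genes. Sequence around other regions was not used here. Alternatives were other limits on control level and cytosines, gene models, distances and the X.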

Additional observations from a re-analysis of the deposited data

How the results depend on the processing

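No paired analysis was possible because the table gives 1 mean per group and no value per library, and no library could be left out for the same reason. Of 40 alternatives to the values above, 15 stayed within the interval of the value (for the number of regions, within 1.5 times) and 25 did not. A limit of 8%, 12% or 15% in control gave 5693, 471 or 59 regions, a median cKO level of 2.34%, 3.77% or 5.11% (3.12% at 10%) and a share left of 25.5%, 28.4% or 29.2% (27.6%). With the same limits 30.4%, 33.1% or 35.6% lay in protein-coding genes, and 22.7%, 2.97% or 3.39% in a cluster. With at least 50 cytosines the median cKO level was 2.74%, the share left 24.7% and the share near a CG loss 23.8%. The mean cKO level weighted by cytosines was 2.91%. With all RefSeq genes 46.4% overlapped a gene. Gaps of up to 2 kb or 50 kb put 4.03% or 29.3% in a cluster. A CG loss overlapped, lay within 500 bp or lay within 5 kb of 2.19%, 12.9% and 49.3%. The nearest start lay at a median of 81.5 kb for protein-coding genes and 29.4 kb for all genes. Leaving out the stretch around Tle3 or asking for a difference above the mitochondrial median, both chosen after the data were seen, left 1665 or 1675 regions, and without that stretch 10.2% were in a cluster.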
